A study of Mus musculus with 9 samples.

Results

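The proteasome genes were taken as every gene of the expression table whose symbol starts with Psm, a letter from a to g and a digit. This rule found 50 of 18272 genes. Of these, 49 encode subunits, assembly chaperones or regulators of the proteasome, and 1, Psmc3ip, is a partner of the meiotic recombinases that owes its symbol to a binding partner and is no subunit. The set held the 7 subunits of the alpha ring, the 7 constitutive subunits of the beta ring, the 3 inducible catalytic subunits Psmb8, Psmb9 and Psmb10, the 6 ATPases and 11 other subunits of the 19S particle, 3 chaperones of 19S assembly, 4 chaperones of 20S assembly, 5 activator genes, the inhibitor gene Psmf1, and the tissue-restricted subunits Psma8 and Psmb11.

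The proteasome degrades proteins that carry a ubiquitin chain. Its barrel, the 20S core, is built from outer alpha rings, which form the gate, and inner beta rings, which hold the proteolytic sites. The 19S particle sits on the barrel, binds the ubiquitin chain, removes it and threads the protein inwards with its ATPases. In cells exposed to interferon-gamma, and at rest in many leukocytes, Psmb8, Psmb9 and Psmb10 replace the constitutive catalytic subunits Psmb5, Psmb6 and Psmb7 in newly made barrels, giving the immunoproteasome, which is known for the peptides it supplies to MHC class I. In bone, proteasome inhibition is known to act on both osteoblasts and osteoclasts, and in muscle the same system degrades the contractile proteins during atrophy.

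RNA was sequenced from 1 tibia of each of 9 female C57BL/6J mice, bought at 10 to 11 weeks of age, with 3 mice in each of 3 groups and 1 library per mouse. NGT mice (normal glucose tolerance) received a single injection of citrate vehicle. T1D mice received a single injection of streptozotocin (STZ), which destroys pancreatic beta cells, and 2 weeks later saline for 8 weeks. Lira mice received the same STZ and then liraglutide, an agonist of the GLP-1 receptor, at 0.6 mg/kg/day. The treatment lasted 8 weeks by the methods, whereas the label of Lira mouse 3 gives 9 weeks. The diabetes of both groups was chemical and not autoimmune, and no saline injection of the NGT mice is described in the sources used here.

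Each library held 13086373 to 16528394 expected counts, that is, counts estimated per gene from the alignments. Osteoblast and osteocyte markers such as Bglap and Col1a1 were present in every library, summing to 111 to 3682 CPM (counts scaled to a common library total, with TMM). The bones had been cleaned of muscle, yet 7 markers of skeletal muscle summed to 74857 to 206408 CPM, more than the osteoblast and osteocyte markers in every library. T1D mouse 1 and Lira mouse 3 stood apart from the rest. In T1D mouse 1, 476 of 13960 tested genes were over 2 times as high as in every other library, in Lira mouse 3 there were 440 such genes, and in the other libraries 2 to 83. Psmb8, Psmb9, Psmb10 and Psme2 were among those of T1D mouse 1, and 0 proteasome genes were among those of Lira mouse 3. In bulk tissue, fewer cells of a type and less RNA per cell cannot be told apart.

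The promoters of the inducible subunits Psmb8 and Psmb9 and of the constitutive subunits Psmb5 and Psmb6 are shown first, because the results turn on these subunits. They are RefSeq sequences of the GRCm38.p6 build, end at the base before the gene start and are read in the direction of the gene. Capitals mark a match on either strand to 1 of 4 motifs, namely the core of the interferon-stimulated response element (GAAA and GAAA with any 2 bases between), TTCNNNGAA (a STAT site), TGACNNNGC (the core of the antioxidant response element, which factors such as Nfe2l1 bind) and the CCAAT box.
Psmb8 (chr17:34197945-34198194, plus strand): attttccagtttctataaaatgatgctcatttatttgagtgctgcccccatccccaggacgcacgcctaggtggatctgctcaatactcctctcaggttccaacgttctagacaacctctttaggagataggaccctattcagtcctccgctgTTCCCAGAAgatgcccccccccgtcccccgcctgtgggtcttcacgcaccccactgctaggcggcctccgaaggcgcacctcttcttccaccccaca
Psmb9 (chr17:34187331-34187555, minus strand): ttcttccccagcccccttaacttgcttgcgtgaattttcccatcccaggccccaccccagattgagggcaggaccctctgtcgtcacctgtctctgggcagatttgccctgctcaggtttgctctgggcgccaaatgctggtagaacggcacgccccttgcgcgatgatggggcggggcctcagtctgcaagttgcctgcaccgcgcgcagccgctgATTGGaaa
Psmb5 (chr14:54617996-54618245, minus strand): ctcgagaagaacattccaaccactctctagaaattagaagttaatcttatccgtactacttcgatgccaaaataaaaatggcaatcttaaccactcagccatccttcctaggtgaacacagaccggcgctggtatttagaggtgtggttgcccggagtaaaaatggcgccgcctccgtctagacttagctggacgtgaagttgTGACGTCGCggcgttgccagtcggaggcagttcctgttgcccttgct
Psmb6 (chr11:70525107-70525356, plus strand): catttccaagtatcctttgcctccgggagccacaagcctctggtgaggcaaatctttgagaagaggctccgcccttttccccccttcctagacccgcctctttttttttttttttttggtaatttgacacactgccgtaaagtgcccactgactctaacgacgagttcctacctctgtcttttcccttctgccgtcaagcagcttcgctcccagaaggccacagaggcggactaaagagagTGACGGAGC

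The Psmb8 promoter held a STAT site at position -97 from the gene start, and the Psmb9 promoter a CCAAT box at -8. The 225 bases shown for Psmb9 are also the whole interval to the start of Tap1, which lies on the opposite strand and encodes a subunit of the transporter that carries peptides to MHC class I. The window of Psmb10, the remaining inducible subunit, held no match to the 4 motifs and is not shown. The promoters of Psmb5 and Psmb6 each held an antioxidant response element core, at -47 and -9. Windows of 300 bases, from 250 before to 50 after the start, were found for 42 of the 50 genes and for 32851 promoters in all. Among the 42, the interferon-stimulated core was present in 5 (11.9%, against 3.44% of all windows), namely Psmb3, Psmd4, Psmd9, Psme1 and Psmg4, and in Psme1 it lay 10 bases into the transcript. TTCNNNGAA was present in 3 (7.14%, against 8.30%), TGACNNNGC in 6 (14.3%, against 12.4%) and the CCAAT box in 15 (35.7%, against 37.4%). These matches are descriptions of the letters and not binding sites.

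The constitutive subunits were abundant and close to each other in level. In FPKM, which the authors scaled for gene length so that genes can be set side by side, the means over 9 mice of the 31 constitutive 20S and 19S subunits ran from 32.0 for Psmd14, the deubiquitinase of the lid, to 179 for Psmb7, the subunit with trypsin-like activity, with a median of 80.9. Psmd8 and Psmb3 came next to Psmb7, at 127 ± 23.2 and 114 ± 15.2 FPKM (SD, n = 9 mice), and their spreads overlapped. The 3 inducible subunits stood at means of 9.57 to 12 FPKM, below the mean of every constitutive subunit. T1D mouse 1 raised these means, since without it Psmb8 was at 6.37, Psmb9 at 5.15 and Psmb10 at 7.66 FPKM over 8 mice. Assembly chaperones were also low, at 5.68 to 11.4 FPKM for the 19S and 5.08 to 16.5 FPKM for the 20S particle. All 9 libraries contained the activators Psme1, Psme2, Psme3 and Psme4, at means of 28.3 to 47.2 FPKM. Psmb11, the thymus subunit, had a mean of 0.362 FPKM, and Psma8, the testis subunit, had 0 to 9 counts per library and was too low to test.

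The constitutive subunits also differed little between mice. For a single gene across mice, levels are given in CPM scaled by TMM, a method that equalizes the libraries on the bulk of their genes. The highest mouse exceeded the lowest by 1.34 to 1.98 times over the 31 constitutive subunits, with a median of 1.53, against a median of 2.11 over all 13960 tested genes. For Psmb8 the same ratio was 24.0, for Psmb9 17.8 and for Psmb10 5.01. Within groups, the median SD on the log2 scale was 0.23 for the constitutive subunits, 0.31 for all tested genes and 1.17 for the inducible subunits. The tested genes were not matched to the subunits for level, and the part of level in these differences was not tested.

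**Figure D1:**
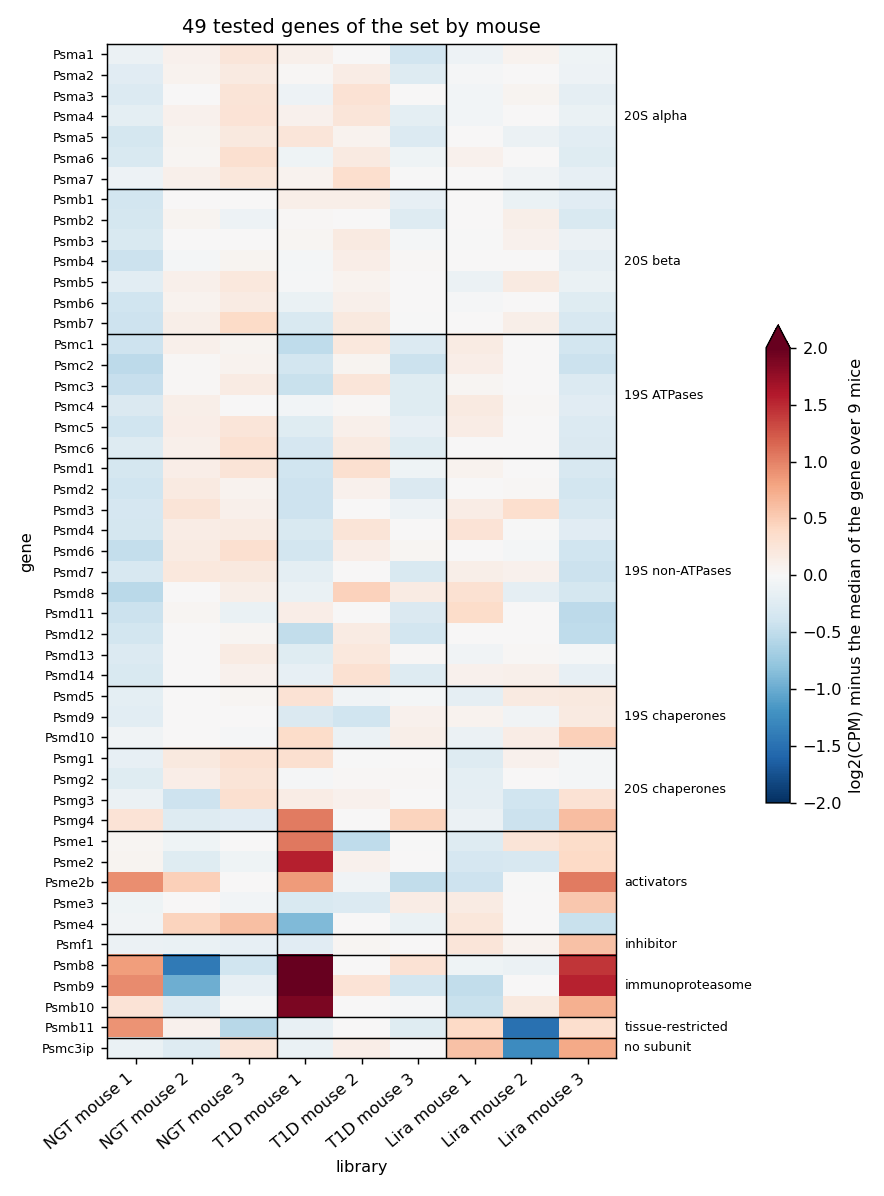
Each row is 1 of the 49 tested genes, each column 1 library, and the colour gives log2 CPM minus the median of that gene over the 9 mice, capped at 2. The constitutive blocks are pale throughout, whereas Psmb8, Psmb9 and Psmb10 are darkest in T1D mouse 1, in which they reached 55.7, 29.0 and 34.3 CPM.

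The first comparison asks what diabetes changed in the tibia, T1D against NGT, and the second what liraglutide changed in diabetic mice, Lira against T1D. No proteasome gene passed the cut-offs of the study (adjusted p under 0.05 and a fold change over 2) in either comparison as tested here. The paper applied these cut-offs with an analysis of variance and reported changed genes in both comparisons. Its screen was not repeated here, so the counts below are not those of its test. By the quasi-likelihood test of edgeR, adjusted over all genes by Benjamini-Hochberg, 0 of 49 tested members were called in each. Of all 13960 genes, 0 (0%) were called as well. DESeq2 also called 0 members, but its share of all genes called was not counted, so this is no result about the members. At an unadjusted p under 0.05, edgeR gave 0 members in T1D against NGT, where 2.36% of all genes were higher and 1.60% lower at this level, and 0 members in Lira against T1D, where the background was 1.55% and 1.78%. DESeq2 gave 2 members, Psmb8 and Psme4, in the first comparison, where 4.99% of all genes reached this level, a share near that of the members. Groups that did not overlap were found for 0 members in T1D against NGT (3.52% of all genes higher and 5.08% lower), and for 1 member, Psmf1, which was higher in Lira than in T1D mice (3.73% of all genes higher and 3.40% lower). Of the 49, 23 were higher and 26 lower in T1D than in NGT, with a range from -0.64 to 1.94 on the log2 scale, and 24 were higher and 25 lower in Lira than in T1D. The medians of all tested genes were 0.02 and 0.04.

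**Figure D2:**
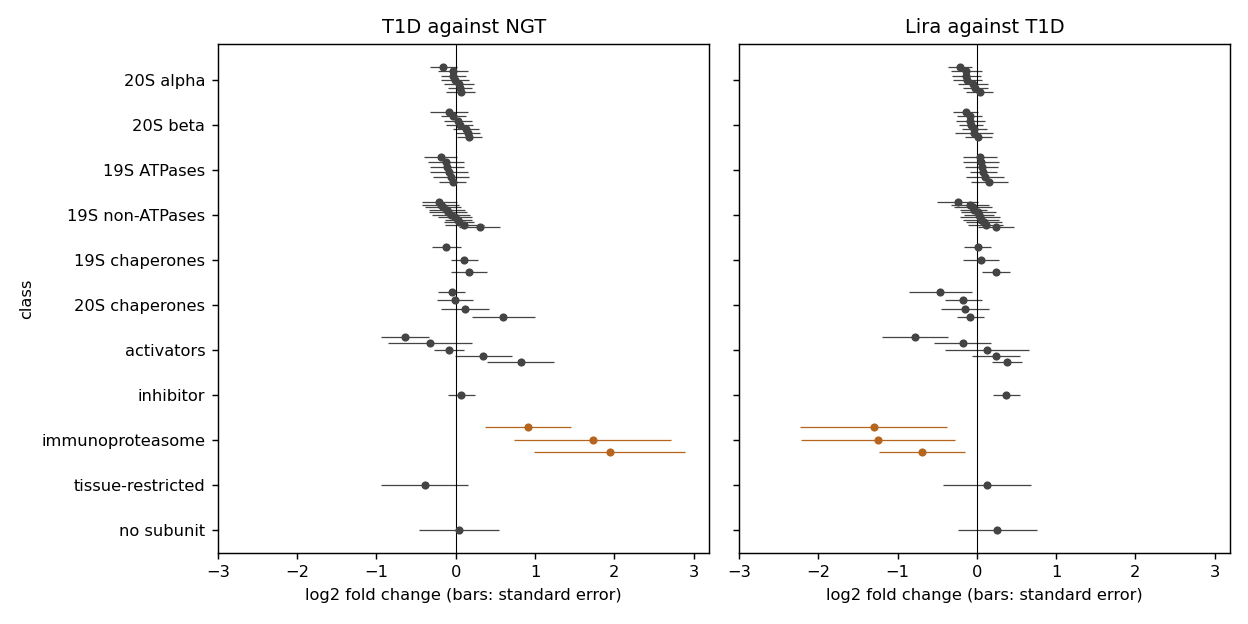
Points are log2 fold changes of the 49 tested genes from edgeR, bars are standard errors, and rows are classes, with the inducible catalytic subunits in orange. The constitutive classes lie within 0.30 of 0 on the log2 scale in both panels, and the inducible subunits lie at 0.91 to 1.94 in T1D against NGT and at -1.30 to -0.69 in Lira against T1D, with wide bars.

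The inducible subunits showed the highest group means in T1D mice, and 1 mouse carried them. Psmb8 (gene number 16913), the chymotrypsin-like subunit of the immunoproteasome, was measured at 11, 2.32 and 4.67 CPM in the NGT mice, 55.7, 6.15 and 7.54 CPM in the T1D mice and 5.78, 5.69 and 16.6 CPM in the Lira mice. T1D mouse 1 was far above all others, Lira mouse 3 came second then NGT mouse 1, and the groups overlapped. The log2 fold change was 1.94 with a standard error of 0.95 in T1D against NGT (adjusted p = 0.977) and -1.30 with a standard error of 0.93 in Lira against T1D (adjusted p = 0.978), both by edgeR's quasi-likelihood test.

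Psmb9 (gene number 16912), which takes the place of Psmb6, was measured at 6.16, 1.62 and 2.85 CPM in NGT, 29.0, 3.86 and 2.47 CPM in T1D and 2.28, 3.19 and 9.30 CPM in Lira mice. Psmb10 (gene number 19171), which takes the place of Psmb7, was at 11.2, 7.73 and 9.10 CPM in NGT, 34.3, 9.30 and 9.14 CPM in T1D and 6.85, 10.6 and 15.3 CPM in Lira mice. In both genes the first 3 mice were again T1D mouse 1, Lira mouse 3 and NGT mouse 1, and T1D mice 2 and 3 lay within the range of the other groups. For Psmb9 the log2 fold changes were 1.73 ± 0.99 (SE) and -1.25 ± 0.97, and for Psmb10 they were 0.91 ± 0.54 and -0.69 ± 0.54, with adjusted p-values of 0.977 and 0.978 by edgeR.

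Without T1D mouse 1, the log2 fold changes in T1D against NGT were 0.18 for Psmb8, -0.17 for Psmb9 and -0.02 for Psmb10. In Lira against T1D they were then 0.46, 0.64 and 0.24, of the opposite sign to those over all mice. No other mouse, left out alone, turned a direction for these 3 genes. Without both T1D mouse 1 and Lira mouse 3, the values in Lira against T1D were -0.26, -0.21 and -0.08, so that the sign of this comparison depended on both mice. The fit without T1D mouse 1 kept NGT mouse 1, the NGT mouse of the same number. In same-numbered mice 2 and 3, T1D minus NGT on log2(CPM + 1) was 1.11 and 0.59 for Psmb8. For Psmb9 it was 0.89 and -0.15, and for Psmb10 0.24 and 0.00.

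**Figure D3:**
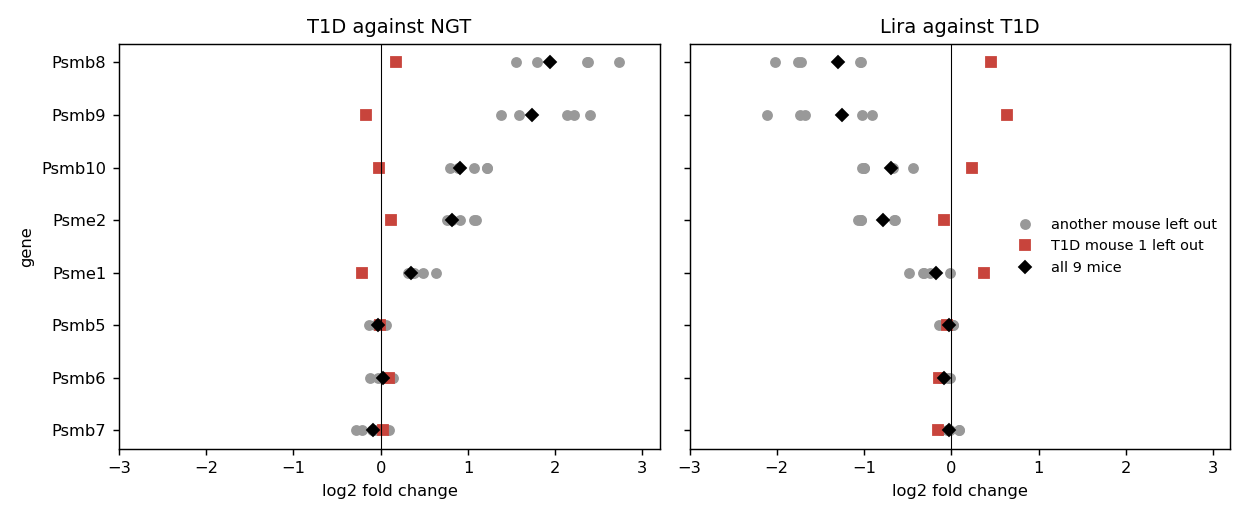
Log2 fold changes from edgeR for the inducible subunits, the activator genes Psme1 and Psme2 and the constitutive catalytic subunits, with all 9 mice (black diamonds), without T1D mouse 1 (red squares) and without each other mouse of the compared groups (grey circles). Leaving out T1D mouse 1 takes Psmb8 from 1.94 to 0.18 in T1D against NGT and from -1.30 to 0.46 in Lira against T1D.

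Setting each inducible subunit beside its constitutive partner gave a ratio within a library that no scaling between libraries can move. In FPKM, Psmb8 was 15%, 2.54% and 4.73% of Psmb5 in NGT mice, 66.6%, 6.91% and 8.84% in T1D mice and 7.38%, 5.91% and 21.4% in Lira mice. Psmb9 ran from 1.94% to 39.2% of Psmb6 and Psmb10 from 2.90% to 18.3% of Psmb7, with the highest value in T1D mouse 1 each time. No library therefore held as much of an inducible subunit as of its partner. The denominators hardly moved, since Psmb5 had log2 fold changes of -0.03 ± 0.16 (SE) and -0.03 ± 0.16, Psmb6 of 0.03 ± 0.18 and -0.08 ± 0.18, and Psmb7 of -0.09 ± 0.24 and -0.03 ± 0.24, all with an adjusted p of at least 0.977 by edgeR.

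The mean log2 ratio of Psmb8 to Psmb5 was higher in T1D than in NGT mice by 1.50 (two-sided exact permutation p = 0.400), that of Psmb9 to Psmb6 by 1.04 (p = 0.5, same test) and that of Psmb10 to Psmb7 by 0.68 (p = 0.5, same test). In Lira against T1D the differences were -0.71, -0.60 and -0.45 (exact permutation p = 0.6, 0.6 and 0.700). With 3 mice against 3, no p under 0.1 is possible, and over the 6 tests every Benjamini-Hochberg adjusted p of these permutation tests was 0.700. They did not use the same-numbered pairs of NGT and T1D mice described below. In the 3 pairs, log2 Psmb8/Psmb5 was -0.59 in T1D against -2.74 in NGT, -3.86 against -5.30 and -3.50 against -4.40. The ratios of Psmb9 and Psmb10 were also higher in T1D in each pair, if barely for Psmb9 in mice 3 (-5.02 against -5.03). Of all tested genes, 38.2% kept 1 direction in all 3 pairs. The 3 inducible subunits made up 8.60%, 2.58% and 3.25% of the summed FPKM of the 6 catalytic subunits in NGT mice, 26.1%, 4.16% and 4.48% in T1D mice and 3.58%, 4.2% and 11.3% in Lira mice. In all, 6 of the 9 libraries thus lay at 4.48% or below, with mice of every group among them. Each T1D mouse was above the NGT mouse of the same number.

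**Figure D4:**
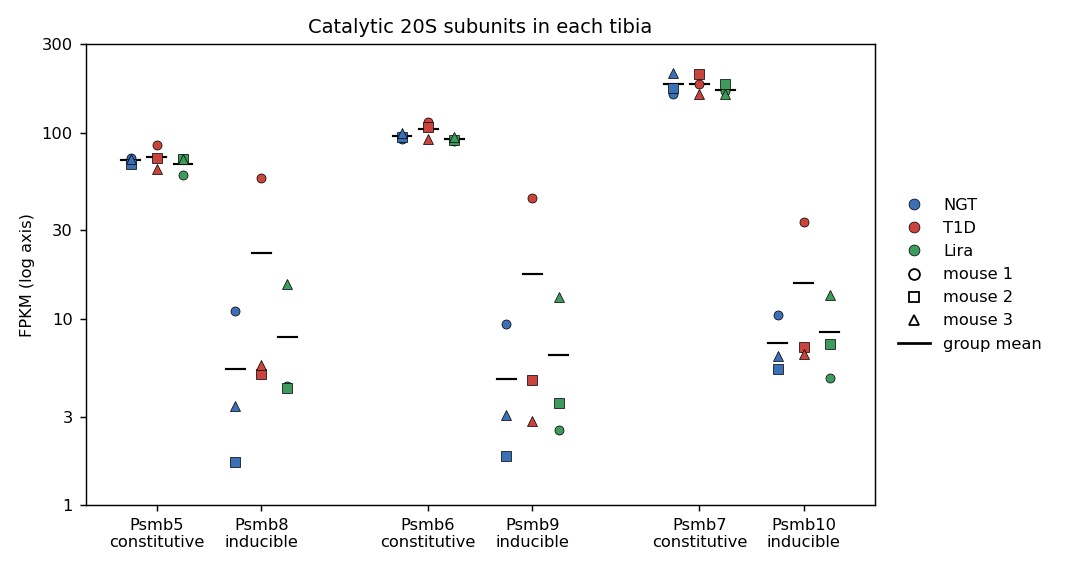
FPKM on a log axis of the constitutive catalytic subunits and the inducible subunits that replace them, with 1 symbol per mouse, colours for groups and lines for group means. Psmb5, Psmb6 and Psmb7 form tight clusters, and the inducible subunits spread from 1.72 FPKM (Psmb8 in NGT mouse 2) to 57.3 FPKM (Psmb8 in T1D mouse 1).

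Across the 9 mice, Psmb8 followed Ptprc, which encodes CD45, a surface protein of leukocytes. On log2(CPM + 1), Pearson's r was 0.81 (exact permutation p = 0.00694, adjusted p = 0.0156) and Spearman's rho 0.90 (exact permutation p = 0.00203, adjusted p = 0.0183), with adjustment over 9 relations. Without the 2 mice farthest from the median of Ptprc, r was 0.76, and without T1D mouse 1 and Lira mouse 3 it was 0.92. Ptprc was measured at 42.1, 1.55 and 11.2 CPM in NGT, 51.0, 10.3 and 22.8 CPM in T1D and 16.7, 5.14 and 81.6 CPM in Lira mice, so the 3 mice with the highest Psmb8 were also the 3 with the highest Ptprc, though T1D mouse 1 led in Psmb8 and Lira mouse 3 in Ptprc. For Psmb9 and Ptprc, r was 0.72 (exact permutation p = 0.0249, adjusted p = 0.0448) and 0.67 without the 2 farthest mice, and rho was 0.68 (exact permutation p = 0.0503, adjusted p = 0.113). For Psmb10 and Ptprc, r was 0.60 (exact permutation p = 0.0843, adjusted p = 0.112) and 0.58 without the 2 farthest mice, and rho was 0.63 (exact permutation p = 0.0760, adjusted p = 0.137). Without T1D mouse 1 and Lira mouse 3, r fell to 0.66 for Psmb9 and to 0.33 for Psmb10, whereas that of Psmb8 rose.

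Between Psmb8, Psmb9 and Psmb10 and their constitutive partners Psmb5, Psmb6 and Psmb7, r was -0.46, -0.55 and -0.59 (exact permutation p = 0.211, 0.124 and 0.0869), and adjusted p-values were 0.211, 0.140 and 0.112. Spearman's rho was -0.75, -0.55 and -0.55, with adjusted exact permutation p-values of 0.113, 0.149 and 0.149, and r without the 2 mice farthest from the median of the partner was -0.45, -0.67 and -0.77. The labels name no batches, so that no relation could be recomputed within one.

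Genes of interferon-gamma signaling and class I antigen presentation pointed the same way as the inducible subunits. All 18 genes of this list were higher in T1D than in NGT mice, with a median log2 fold change of 1.33, against 0.02 over all tested genes. At an unadjusted p under 0.05, Cd74, the invariant chain of MHC class II (log2 fold change 3.11), and the guanylate-binding protein Gbp2 (2.85) passed edgeR's test, and none passed after adjustment. In Lira against T1D, 17 of 18 were lower, with a median of -0.94, and Gbp2 was at -2.73 (also under 0.05 unadjusted). Without T1D mouse 1, 10 of the 18 were higher and 8 lower in T1D than in NGT (median 0.05), and 17 were higher in Lira than in T1D (median 0.37). Tap1, which shares the promoter interval of Psmb9, was at 17.6, 5.08 and 5.80 CPM in NGT, 67.2, 7.74 and 11.8 CPM in T1D and 9.39, 6.06 and 26.0 CPM in Lira mice, the same order of the first 3 mice as for Psmb9. This list holds transcripts of leukocytes as well as of other cells.

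Markers of macrophages and monocytes were highest where the inducible subunits were highest. The 7 markers summed to 23.1 to 108 CPM in NGT, 77.7 to 1262 CPM in T1D and 64.3 to 143 CPM in Lira mice. All 7 were highest in T1D mouse 1, as were 20.7% of all tested genes, and none of the 7 was at 0 in all libraries. The 8 osteoblast and osteocyte markers were at 111 to 886, 413 to 3682 and 232 to 771 CPM, with 6 of 8 highest in T1D mouse 1. Neutrophil markers were at 3.87 to 2208, 48.2 to 1342 and 100 to 4772 CPM, and B cell markers at 0.619 to 58.8, 18.9 to 23.3 and 4.44 to 180 CPM, both highest in Lira mouse 3, in which the inducible subunits were second. Of the other lists, erythroid markers summed to 390 to 6589, 492 to 19003 and 829 to 29030 CPM, T and NK cell markers to 0.945 to 10.8, 2.79 to 16 and 1.56 to 25.9 CPM, and dendritic cell markers to 8.13 to 17.1, 11.7 to 19.5 and 8.88 to 22.5 CPM. Osteoclast markers summed to 6.19 to 66.6, 60.5 to 230 and 9.58 to 112 CPM, with 4 of 4 highest in T1D mouse 1, and endothelial markers to 220 to 330, 215 to 283 and 214 to 391 CPM. The part of these cells in the levels of Psmb8, Psmb9 and Psmb10 was not tested.

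**Figure D5:**
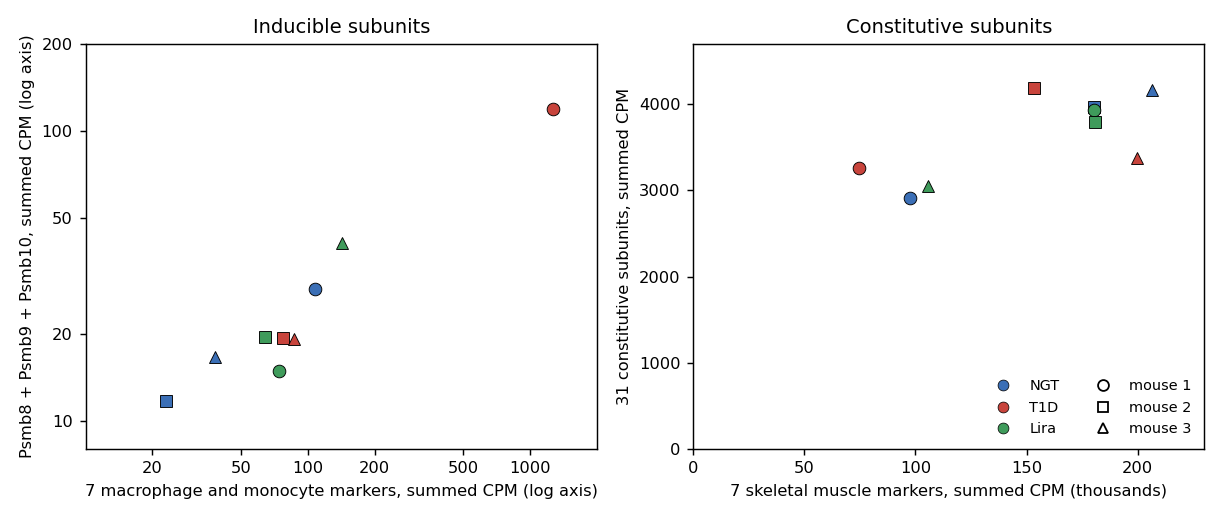
Left, summed CPM of Psmb8, Psmb9 and Psmb10 against summed CPM of 7 macrophage and monocyte markers, both on log axes. Right, summed CPM of the 31 constitutive subunits against that of 7 skeletal muscle markers, in which T1D mouse 1, NGT mouse 1 and Lira mouse 3 lie lowest on both axes.

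Among the activators, which open the gate of the 20S core, Psme1 and Psme2 encode the subunits of the interferon-inducible PA28 alpha-beta ring. Psme2 was at 19.9, 16.2 and 17.9 CPM in NGT, 56.3, 20.2 and 19.1 CPM in T1D and 15.2, 15.3 and 25.3 CPM in Lira mice. T1D mouse 1 was highest, and T1D mice 2 and 3 lay between NGT mouse 3 and Lira mouse 3. The log2 fold changes were 0.82 ± 0.42 (SE) in T1D against NGT (edgeR adjusted p = 0.977) and -0.78 ± 0.42 in Lira against T1D (edgeR adjusted p = 0.978), and 0.12 and -0.08 without T1D mouse 1. The expected counts of Psme2 and of its near-copy Psme2b, which was at 1.02 to 2.94 CPM, were not whole in any library, so both levels are uncertain, and which genes their reads were divided among was not tested.

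Psme1 was at 35.7, 32.7 and 34.8 CPM in NGT, 72.0, 24.6 and 34.7 CPM in T1D and 29.1, 41.7 and 45 CPM in Lira mice. T1D mice were thus both the highest and the lowest of the 9. Its log2 fold changes were 0.35 ± 0.36 (SE) and -0.18 ± 0.36, and without T1D mouse 1 they were -0.22 and 0.38.

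Psme4 (gene number 103554), which encodes the activator PA200, had the lowest p among members in T1D against NGT. It was measured at 292, 421 and 465 CPM in NGT, 167, 309 and 281 CPM in T1D and 361, 308 and 226 CPM in Lira mice. T1D mouse 1 was lowest and NGT mice 2 and 3 were highest, and only NGT mouse 1 fell into the range of the T1D mice. The log2 fold change was -0.64 with a standard error of 0.30 (edgeR adjusted p = 0.977), and leaving out single mice moved it between -0.81 and -0.41. In Lira against T1D it was 0.24 ± 0.30. In the same libraries the 7 skeletal muscle markers summed to 97753, 180491 and 206408 CPM in NGT, 74857, 153201 and 199605 CPM in T1D and 180268, 180974 and 105666 CPM in Lira mice. The part of muscle RNA in the level of Psme4 was not tested.

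Psme3, which encodes the nuclear activator PA28 gamma, was at 108, 115 and 111 CPM in NGT, 93.0, 95.5 and 128 CPM in T1D and 129, 115 and 168 CPM in Lira mice. NGT mice were close to each other, and Lira mouse 3 was highest. Its log2 fold change in Lira against T1D was 0.38 ± 0.19 (SE, edgeR adjusted p = 0.978), with a range from 0.21 without Lira mouse 3 to 0.54 without T1D mouse 3. Psmf1 (gene number 228769), which encodes PI31, a regulator that inhibits the 20S core in vitro, was at 20.7, 20.6 and 20 CPM in NGT, 19.2, 23.0 and 22.5 CPM in T1D and 26.5, 23.5 and 33.7 CPM in Lira mice. Every Lira mouse was above every T1D mouse, if narrowly for Lira mouse 2 against T1D mouse 2, and the log2 fold change was 0.37 ± 0.17 (SE, edgeR adjusted p = 0.978). It ranged from 0.21 to 0.48 when single mice were left out. The expected counts of Psmf1 were not whole in 8 libraries, so its level is less certain.

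The constitutive 20S core showed small differences. Of the 7 alpha subunits, which form the outer rings and the gate, 3 were higher and 4 lower in T1D than in NGT (median log2 fold change -0.01), and 1 was higher and 6 lower in Lira than in T1D (median -0.12). Psma1 was at -0.16 ± 0.17 (SE) in T1D against NGT and Psma7 at -0.21 ± 0.15 in Lira against T1D. Leaving out single mice moved Psma1 between -0.26 and -0.03 and Psma7 between -0.28 and -0.11. Of the 7 constitutive beta subunits, 5 were higher in T1D (median 0.05) and 1 was higher in Lira than in T1D mice (median -0.07). None passed edgeR's test. Psmb5, the chymotrypsin-like subunit, was at 51.9, 64.4 and 69.4 CPM in NGT, 58.8, 62.7 and 60 CPM in T1D and 55.1, 67.7 and 54.8 CPM in Lira mice, so that the NGT mice alone covered the range of both other groups. Psmb7 was at 128, 186 and 222 CPM in NGT, 139, 195 and 170 CPM in T1D and 171, 186 and 137 CPM in Lira mice, and again the lowest and the highest mouse were both NGT mice.

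The 19S ATPase genes differed by small amounts. All 6 ATPase genes, Psmc1 to Psmc6, were lower in T1D than in NGT mice (median log2 fold change -0.10, range from -0.19 for Psmc6 to -0.04 for Psmc4), and all 6 were higher in Lira than in T1D mice (median 0.07). Psmc1, as an example, was at 97.6, 140 and 135 CPM in NGT, 91.6, 151 and 107 CPM in T1D and 145, 130 and 101 CPM in Lira mice. Each group held mice near the bottom and near the top, and the standard error of 0.24 exceeded the fold change of -0.09. With library size in place of TMM, 3 of the 6 ATPase genes were higher and 3 lower in T1D than in NGT, and 2 were higher and 4 lower in Lira than in T1D. With TMM, 2 were higher and 4 lower in T1D than in NGT when NGT mouse 2, NGT mouse 3, T1D mouse 1 or T1D mouse 3 was left out, whereas 1 was higher and 5 lower in Lira than in T1D without Lira mouse 1, and 2 were higher and 4 lower without T1D mouse 1. Both comparisons share the T1D mice, so that opposite signs are no separate evidence.

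Of the 11 other 19S subunits, 4 were higher and 7 lower in T1D than in NGT (median -0.06), and 7 were higher and 4 lower in Lira than in T1D (median 0.03). Psmd8, a lid subunit, had the largest difference of the constitutive genes in T1D against NGT at 0.30 ± 0.26 (SE), and Psmd7, another lid subunit, was at -0.21 ± 0.22, with a range from -0.36 to -0.12 when single mice were left out. Psmd8 was measured at 132, 191 and 207 CPM in NGT, 174, 262 and 215 CPM in T1D and 235, 169 and 149 CPM in Lira mice. T1D mice 2 and 3 were above every NGT mouse, whereas T1D mouse 1 lay below NGT mice 2 and 3. Psmd11, which encodes a lid subunit as well, was at 122, 169 and 150 CPM in NGT, 179, 164 and 134 CPM in T1D and 212, 165 and 114 CPM in Lira mice. Its highest and lowest mice were both Lira mice.

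Over the 31 constitutive subunits together, 12 were higher and 19 lower in T1D than in NGT (median -0.03, range -0.21 to 0.30), and 15 were higher and 16 lower in Lira than in T1D (median -0.02, range -0.24 to 0.24). These counts depended on the scaling. With library size, 23 were higher and 8 lower in T1D than in NGT (median 0.07), and 3 were higher and 28 lower in Lira than in T1D (median -0.12), while the medians of all tested genes moved to 0.09 and -0.05. Single mice also decided the split, since leaving them out gave 4 to 22 genes higher in T1D against NGT (4 without NGT mouse 1, 7 without T1D mouse 2 and 22 without NGT mouse 3) and 6 to 21 in Lira against T1D.

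The summed CPM of the 31 constitutive subunits was 2910, 3974 and 4164 in NGT, 3263, 4194 and 3373 in T1D and 3936, 3790 and 3050 in Lira mice. NGT mouse 1, Lira mouse 3 and T1D mouse 1 were the 3 lowest, and they were also the 3 lowest in skeletal muscle markers, at 97753, 105666 and 74857 CPM against 153201 to 206408 CPM in the other 6. NGT mouse 1 had the lowest level for 19 of the 31 genes, and for 1015 of all 13960 tested genes. The TMM factors of these 3 libraries, 1.21, 1.12 and 1.25, were the highest, against 0.883 to 0.995 in the others, and as a share of all expected counts the 31 genes ranged from 0.306% in T1D mouse 3 to 0.417% in T1D mouse 2. The part of muscle RNA and of scaling in these sums was not tested.

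The assembly chaperones also differed little, apart from Psmg4. Of the 3 19S chaperone genes, 2 were higher in T1D than in NGT (median 0.11) and 3 of 3 were higher in Lira than in T1D (median 0.05), with Psmd9 at 0.24 ± 0.18 (SE) and between 0.14 and 0.41 when single mice were left out. Of the 4 20S chaperone genes, 2 were higher in T1D than in NGT (median 0.05) and 4 of 4 were lower in Lira than in T1D (median -0.16). Psmg4 stood out with 3.55, 2.47 and 2.53 CPM in NGT, 6.03, 2.95 and 4.0 CPM in T1D and 2.71, 2.18 and 4.53 CPM in Lira mice. T1D mouse 1 was again the highest, and the log2 fold change in T1D against NGT was 0.60 ± 0.40 (SE). Psmb11 was at 0.514 to 2.69 CPM and Psmc3ip at 0.701 to 2.81 CPM, with no difference between groups beyond the spread of mice.

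Mice of the same replicate number in NGT and T1D deviated together across genes and were therefore also compared in pairs, a count added after the data were seen. Psmb8 was higher in T1D in each pair, by 2.23, 1.11 and 0.59 on the scale of log2(CPM + 1), and Psme4 was lower in each, at -0.80, -0.44 and -0.72. Psmb10 was higher by 1.53, 0.24 and 0.00, and Psmb9 was at 2.07, 0.89 and -0.15. Altogether 5 of 49 members were higher in all 3 pairs (Psmb8, Psmb10, Psme2, Psmd8 and Psmg4) and 4 were lower in all 3 (Psme4, Psme2b, Psmd2 and Psmd3). The same direction in all 3 pairs was seen for 38.2% of all tested genes, a larger share than the 9 of 49. With the replicate number as a block and only these 2 groups in the fit, Psme4 (log2 fold change -0.65, adjusted p = 0.229) and Psmb8 (1.53, adjusted p = 0.236) were under 0.05 before adjustment by edgeR's test, a level that 14.2% of all genes reached in that fit.

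The genes that work with the proteasome were described from a list of ubiquitin genes, shuttles, deubiquitinases and transcription factors, of which 22 of 25 were in the table and tested. In T1D against NGT, 7 were higher and 15 lower (median -0.10), and Rps27a, a fusion of ubiquitin with a ribosomal protein, was at 0.57 (under 0.05 unadjusted by edgeR). In Lira against T1D, 17 were higher and 5 lower (median 0.16). Without T1D mouse 1, the counts were 10 higher and 12 lower, and 13 higher and 9 lower. Nfe2l1, the transcription factor that raises proteasome subunit genes when the proteasome is blocked, was at 671, 1059 and 784 CPM in NGT, 487, 1001 and 646 CPM in T1D and 909, 1051 and 591 CPM in Lira mice, with overlapping groups.

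The muscle ubiquitin ligases Fbxo32 and Trim63, which send muscle proteins to the proteasome, reached 2604 and 2560 CPM in Lira mouse 1, against 364 to 1929 CPM and 148 to 1023 CPM in the other mice. Of 4 such ligases, 3 were lower in T1D than in NGT and 4 were higher in Lira than in T1D, with 0 at an unadjusted p under 0.05 in either comparison by edgeR. In Lira mouse 1, 4 of the 31 constitutive genes were at their highest, among them Psmd11 (212 CPM), Psmc2 (164 CPM) and Psmd4 (159 CPM). This share of 12.9% was near the 9.93% of all tested genes, so it is no result about the constitutive genes. A larger share of the 31 was highest in T1D mouse 2 (38.7%, against 7.72% of all tested genes). The same held for NGT mouse 3 (32.3%, against 1400 of all 13960 tested genes). The sum of the constitutive subunits in Lira mouse 1, 3936 CPM, lay within the range of the others.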

How the data were processed

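RNA-seq was performed on 9 tibiae, 3 per group, with 1 library per mouse. The authors aligned the reads to the mouse genome (build mm9 by the submitters' processing notes) and deposited expected counts, which are estimated per gene and not normalized, of which 30.2% were not whole numbers, and FPKM values, scaled by the authors for gene length and library total. The aligner and counter are not given in the sources used here. Depth was 13086373 to 16528394 counts per library, and a count of 0 leaves room for up to 3 counts, or 0.163 to 0.237 CPM (counting error only).

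Counts were rounded, and a gene was kept where 3 libraries or more had 10 or more counts (13960 of 18272, and 49 of 50 proteasome genes). They were fitted in R 4.3.3 with edgeR 4.0.16 (TMM, glmQLFit and glmQLFTest, 3 group means), and p-values were adjusted over all tested genes by Benjamini-Hochberg. Standard errors came from the F statistic. Single ratios were compared by exact permutation over mice, without regard to replicate number. Alternatives were DESeq2 1.42.0, library size scaling, no filter, only the compared groups, the replicate number as a block, T1D mouse 1 and Lira mouse 3 left out, and each mouse left out. In simulated data for T1D against NGT (13960 genes), 119 of 200 changed genes were recovered at 4-fold with 4 false calls, and 178 at 16-fold with 4 false calls. Counts were added after the data were seen, those within same-numbered pairs and those of lists without T1D mouse 1.

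For the pairing check, deviations of log2 CPM from group means were correlated across genes between mice of the same number. NGT and T1D mice correlated at 0.583, 0.647 and 0.283 and were taken as pairs, whereas T1D and Lira mice correlated at -0.244, 0.615 and 0.271 and were not. The sources describe no pairing.

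Members, lists and tests were chosen with earlier results of these data known. Genes named with fold changes were Psmb8, Psmb9, Psmb10, their constitutive partners, Psme1 and Psme2, and in each comparison the 3 members higher and the 3 lower with the lowest p, and of the related lists those under 0.05 unadjusted (Cd74, Gbp2 and Rps27a). Psmc1, Psmc4, Psmc6, Psmd8, Psmd11, Psmg4, Tap1, Nfe2l1, Fbxo32 and Trim63 were named after their values were seen. Lists covered proteasome partners, interferon-gamma and class I presentation, muscle ligases and markers of muscle, erythroid cells, neutrophils, B cells, T and NK cells, macrophages, dendritic cells, osteoclasts, osteoblasts and endothelium. Counts were whole in all libraries for 38 of the 50 genes and not whole in at least 1 library for 12. Psma3, Psma4, Psmb11, Psmd9, Psme2 and Psme2b were not whole in 9 libraries, Psmf1 in 8 and Psmd11 in 6. Promoters came from RefSeq (GRCm38.p6), not the build of the files. Protein sequences were not analysed here. A few genes of the lists and relations are left unreported.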

Additional observations from a re-analysis of the deposited data

How the results depend on the processing

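The 39 results were recomputed under 489 alternatives, of which 440 were counted as the same by rules set per kind of result. Counts could move by up to 1.5 times. Fold changes and ratios had to keep their sign, and adjusted p its side of 0.05. Class medians could move by less than their median SD within groups (1.17 for inducible, 0.23 for constitutive subunits), whatever their sign. The replicate block of the ratios counted as the same by construction. Values counted as the same could thus move far, as Psmb8 did in T1D against NGT from 1.94 to 0.18 without T1D mouse 1. Members called stayed at 0 under every alternative, and the lowest adjusted p of a named member was 0.229 (Psme4, edgeR with a replicate block and only the 2 groups compared). The share of all genes called under the alternatives was not counted. Members at an unadjusted p under 0.05 in T1D against NGT numbered 2 with DESeq2 (4.99% of all genes), 1 with library size scaling (3.40%) and 2 with that block (14.2%), and the block changed no other call. For Lira against T1D, where the numbers were not taken as pairs, the block in the fit of all 9 libraries and in that of the 2 groups moved Psmb8 from -1.30 to -0.61 and -0.65, Psmb9 and the inducible median from -1.25 to -0.56 and -0.58, Psmb10 from -0.69 to -0.46 and -0.42, and Psme1 from -0.18 to -0.08 and -0.04. In T1D against NGT it moved Psme1 from 0.35 to 0.28 and 0.20. With library size, 23 constitutive subunits were higher in T1D against NGT and 3 in Lira against T1D, and Psmb5 (0.07) and Psmb7 (0.01) changed sign in T1D against NGT. Without T1D mouse 1 and Lira mouse 3, the inducible subunits had a median log2 fold change of -0.05 in T1D against NGT, with Psmb9 at -0.20, Psmb10 at -0.05, the log2 ratio of Psmb9 to Psmb6 at -0.09 and that of Psmb10 to Psmb7 at -0.09, while Psmb7 was at 0.01 and Psme1 at -0.24. This setting gave, in Lira against T1D, a median of -0.21, with Psmb8 at -0.26, Psmb9 at -0.21, Psmb10 at -0.08 and Psme1 at 0.25. The cause of these changes was not tested.

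Leaving out single mice gave these ranges in T1D against NGT. Members under 0.05 unadjusted ranged from 0 to 3 (5.0% to 7.32% of all genes where there were any), constitutive subunits higher from 4 to 22, the inducible median from -0.02 to 2.40, Psmb8 from 0.18 to 2.73, Psmb9 from -0.17 to 2.40, Psmb10 from -0.02 to 1.22, Psmb5 from -0.14 to 0.06, Psmb6 from -0.12 to 0.14, Psmb7 from -0.28 to 0.10, Psme1 from -0.22 to 0.63, and the log2 ratios of Psmb8, Psmb9 and Psmb10 to their partners from 0.47 to 2.20, -0.09 to 1.74 and -0.09 to 1.12. In Lira against T1D, the same values ranged from 0 to 2 members (3.12% to 5.10% of all genes where there were any), 6 to 21 constitutive subunits, -2.02 to 0.46 for the inducible median, -2.02 to 0.46 for Psmb8, -2.11 to 0.64 for Psmb9, -1.02 to 0.24 for Psmb10, -0.14 to 0.02 for Psmb5, -0.14 to -0.02 for Psmb6, -0.15 to 0.09 for Psmb7, -0.48 to 0.38 for Psme1, and -1.31 to 0.32, -1.30 to 0.53 and -0.90 to 0.32 for the ratios. With 0 to 9 counts per library, Psma8 was near the limit of detection.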
